A study of Mus musculus with 2 samples.

Results

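The windows described here were methylated in XO Xmas mESCs and fell to low methylation in XX Xmas mESCs. They were chosen on the measured values themselves, as autosomal windows of 10 kb with at least 10 listed CpG cytosines, a mean methylation of at least 50% in XO cells and a mean below 25% in XX cells. This gave 663 windows of 36069 autosomal windows with at least 10 listed cytosines (1.84%), or of 9671 that were methylated to at least 50% in XO cells (6.86%). Each listed cytosine was 1 strand of a CpG, and the 663 windows held 9670 of 1756096 autosomal cytosines.

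DNA methylation was measured by reduced representation bisulfite sequencing (RRBS), which reads short fragments cut at CCGG sites, as the percent of reads methylated at each CpG cytosine (%mCpG). Female Xmas mESCs of strain C57/Bl6 carry GFP on 1 X chromosome and mCherry on the other, both driven by the Hprt promoter, so that cells that kept or lost an X can be separated by FACS. Both groups came from cells grown for 7 passages by the study's improved culture method for female mESCs, in medium with 2i and LIF, and were sorted by reporter into XX and XO cells. There was 1 library per karyotype, so no test was possible, the differences below have no replicate check, and differences between karyotypes and between these 2 libraries cannot be told apart.

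In mammalian cells most CpG methylation is copied after replication by Dnmt1, which Uhrf1 brings to hemimethylated DNA, and new methylation is placed by Dnmt3a and Dnmt3b. Female mESCs with both X chromosomes active are known for a low level of DNA methylation, which rises when an X chromosome is lost. Methylated CpGs lie mostly in gene bodies, intergenic DNA and repeats, while CpG-dense gene starts are usually unmethylated.

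For 6 of the 10 windows named below for a large fall on both strands, a short stretch with many listed cytosines is shown. The 6 were picked after their values were seen, to show the CpGs of coding exons, introns and DNA outside coding genes. They are the forward strand of build GRCm38 from RefSeq, and capitals mark the CpGs with a listed value on either strand.
Window nearest to Sel1l, chr12:92885746-92885916: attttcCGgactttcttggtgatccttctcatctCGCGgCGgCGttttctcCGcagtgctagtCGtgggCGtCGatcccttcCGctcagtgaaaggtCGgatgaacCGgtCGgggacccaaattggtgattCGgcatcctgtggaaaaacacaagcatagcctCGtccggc
Cmip intron, chr8:117396572-117396658: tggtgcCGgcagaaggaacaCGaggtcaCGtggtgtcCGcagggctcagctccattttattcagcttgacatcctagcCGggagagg
Eif4b coding exon, chr15:102088636-102088757: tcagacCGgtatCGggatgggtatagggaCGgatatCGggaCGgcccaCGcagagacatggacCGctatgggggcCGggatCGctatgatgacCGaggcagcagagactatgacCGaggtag
Tcf7l2 coding exon, chr19:55919553-55919644: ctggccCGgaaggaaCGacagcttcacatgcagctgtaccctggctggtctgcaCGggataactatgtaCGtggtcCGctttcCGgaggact
Sox5 last exon, chr6:143833288-143833526: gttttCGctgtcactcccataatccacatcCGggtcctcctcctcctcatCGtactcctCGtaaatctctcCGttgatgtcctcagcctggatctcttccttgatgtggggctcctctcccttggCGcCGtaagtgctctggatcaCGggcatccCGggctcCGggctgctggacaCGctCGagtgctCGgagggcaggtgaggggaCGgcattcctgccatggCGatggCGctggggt
Tmtc2 intron, chr10:105238325-105238508: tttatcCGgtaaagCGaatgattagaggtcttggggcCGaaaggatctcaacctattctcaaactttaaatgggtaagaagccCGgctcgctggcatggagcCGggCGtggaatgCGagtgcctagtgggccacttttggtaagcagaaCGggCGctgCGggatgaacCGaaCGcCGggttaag
In the stretch nearest to Sel1l, 22 cytosines had a mean of 9.98% in XX and 55.4% in XO cells. The Cmip stretch reached 11.8% in the XX library and 58.5% in the XO library over 9 cytosines. The Eif4b stretch had 22.9% and 59.2% over 18, and the Tcf7l2 stretch 19.2% and 65.5% over 10. The Sox5 stretch had 9.36% and 45.5% over 21 cytosines, and the Tmtc2 stretch 19.04% and 53.1% over 22. The stretches in Eif4b and Sox5 lie in coding exons, those in Cmip and Tmtc2 in introns, and that nearest to Sel1l outside protein-coding genes. The Tcf7l2 stretch is headed coding exon, but its window held 11 cytosines in coding exons and 13 in introns. How the 10 cytosines of the Tcf7l2 stretch divide was not counted, so its 65.5% should not be read as a coding-exon value. A stretch need not stand for its window, since that of Cd83, not shown, had 9.03% in XX and 28.1% in XO cells.

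The values that chose the windows are given as a description. The windows had a median methylation of 22.2% in XX cells (lowest 6.84%, highest 24.99%) and of 53.9% in XO cells (lowest 50%, highest 82.9%). The other 9008 methylated windows had medians of 39.6% in XX and 61.2% in XO cells. Most windows sat close to the limits that chose them, since 487 of 663 (73.5%) had between 20% and 25% in XX cells and 382 had between 50% and 55% in XO cells. Only 37 were below 15% in XX cells and 2 below 10%. The higher the methylation in XO cells, the fewer windows were chosen, with 548 of 4625 windows (11.8%) from 50% to 60%, 98 of 2951 (3.32%) from 60% to 70%, 15 of 1492 from 70% to 80% and 2 of 564 from 80% to 90%.

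**Figure D1:**
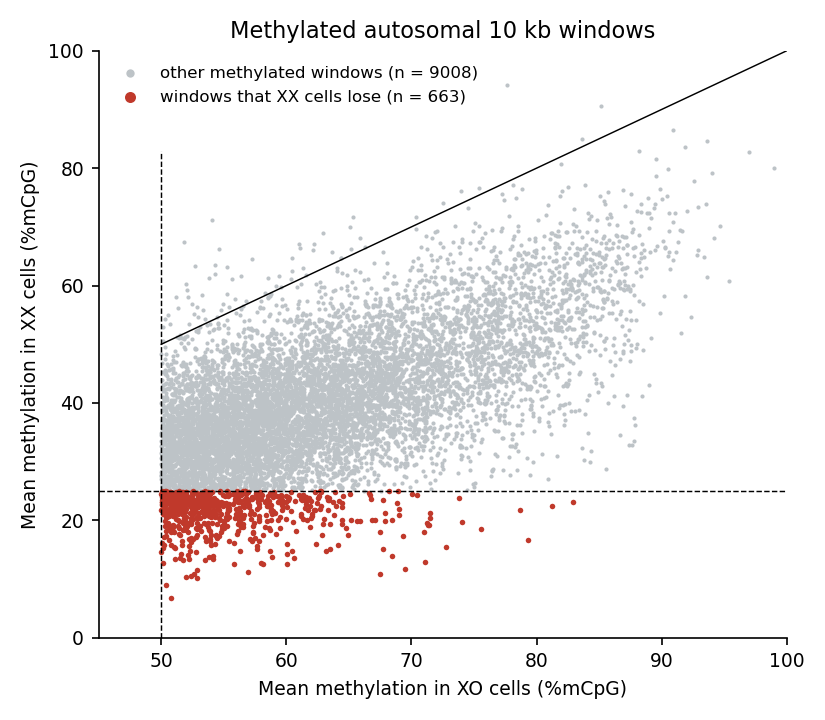
Each point is 1 autosomal 10 kb window with at least 10 listed cytosines and a mean of at least 50 %mCpG in XO cells, with XO methylation on the horizontal axis and XX methylation on the vertical axis. The dashed lines mark the limits of 50 and 25 %mCpG that chose the 663 windows (red), the solid line marks equal values, and the red points crowd against both limits at the edge of a continuous cloud.

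No gap separated the chosen windows from the rest. Just inside the limit on XX cells lay 3 windows at 24.99%, nearest to Ankrd55, Ddi1 and Mat2b, and just outside it lay windows at 25.02%, 25.02% and 25.04%. Just inside the limit on XO cells lay a window in Nrg1 at 50%, 1 nearest to Smad2 at 50.02% and 1 in Afap1l1 at 50.02%. A further 1090 methylated windows had between 25% and 30% in XX cells, and 680 windows below 25% in XX cells had between 45% and 50% in XO cells. Exactly 10 listed cytosines were held by 146 of the chosen windows, while 134 windows with 9 cytosines were past both limits on methylation and were left out.

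The fall was spread over the cytosines of a window and over both strands. XX cells had the lower value at 95.2% of the 9670 cytosines and the higher value at 4.50%, and had the lower value at 84.2% of cytosines in other methylated windows and 48.1% in all windows tested. Methylation fell by 20 percentage points or more at 7302 cytosines (75.5%) and rose by as much at 49 (0.507%), and a fall of this size was seen at 54.5% of cytosines in other methylated windows and 17.1% in all windows tested. Every cytosine was lower in XX cells in 355 of 663 windows (53.5%), against 17.5% of the other methylated windows. All these counts come from the values that chose the windows. By their mean, 87.3% of all 36069 windows tested were lower in XX cells.

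Loss was seldom complete. Of 6066 cytosines in these windows with at least 50% in XO cells, 66.9% had between 10% and 40% in XX cells, 16.7% were below 10% and 3.58% were listed at 0%. A further 8.06% kept 50% or more. For such cytosines of other methylated windows the shares were 39.1%, 3.03%, 0.505% and 42.2%, in the same order. The XX values of the chosen windows took part in the choice, so the limit on XX cells bears on these shares. With no read counts, a cytosine listed at 0% can rest on few reads, and the depth is unknown.

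Of the chosen windows, 493 had at least 5 cytosines on each strand. All 493 were lower in XX cells on both strands, and 442 (89.7%) fell by 20 points or more on both. The median difference, XX minus XO, was -33.1 points on the forward and -33.1 on the reverse strand, but the falls on the strands of a window differed by a median of 10.1 points. Both limits were met on each strand alone in 97 of 493 windows (19.7%). When the cytosines of each window were split at the middle by position, 662 of 663 windows were lower in XX cells on either side, 591 (89.1%) fell by 20 points or more on either side and 141 (21.3%) met both limits on either side. At 2195 CpGs read on both strands, 2038 (92.8%) were lower in XX cells on both. The limits that chose the windows largely set these counts. On 1 strand not used to choose, 96.2% of other methylated windows were also lower in XX cells and 54.2% fell by 20 points or more. On 1 side not used to choose, 49.5% of other methylated windows fell by as much. Shares on both strands or both sides are not given for other methylated windows.

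Because the same values chose the windows, the fall was read again on a strand that took no part in the choice. Of windows with at least 5 cytosines on each strand, 833 met both limits on the forward strand, with median values there of 21.2% (XX) and 55.5% (XO). On their reverse strand the median values were 27.3% (XX) and 50.05% (XO), and the median difference was -21.5 points. The 6369 other windows that were methylated on the forward strand had 37.0% and 59.2% on the reverse strand, a difference of -21.1 points. Both limits were met on the reverse strand by 97 of the 833 windows (11.6%), against 347 of the 6369 others (5.45%). Over all 7202 windows methylated on the forward strand, the 833 included, it was 444 (6.16%).

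Choosing on the reverse strand gave nearly the same values. On the forward strand the 868 windows so chosen had 27.9% in XX and 50.5% in XO cells, a median difference of -21.7 points. Both limits were met there by 97 (11.2%), against 322 of the 6338 others (5.08%). Over all 7206 windows methylated on the reverse strand, the 868 included, the share was 5.81%. Over both directions, the fall on the strand not used was -21.6 points for chosen windows and -21.1 for other methylated windows, and with medians over cytosines the order turned, at -22.3 and -23.0. The median ratio of XX to XO methylation on that strand was 0.560 for chosen and 0.640 for other windows. Thus the fall in points on the unused strand was close to that of methylated windows at large, with both karyotypes at a lower level. Among windows from 50% to 60% in XO cells on the choosing strand, it was -20.8 points for chosen and -19.8 for other windows. No error is available for the difference, since each karyotype had 1 library.

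**Figure D2:**
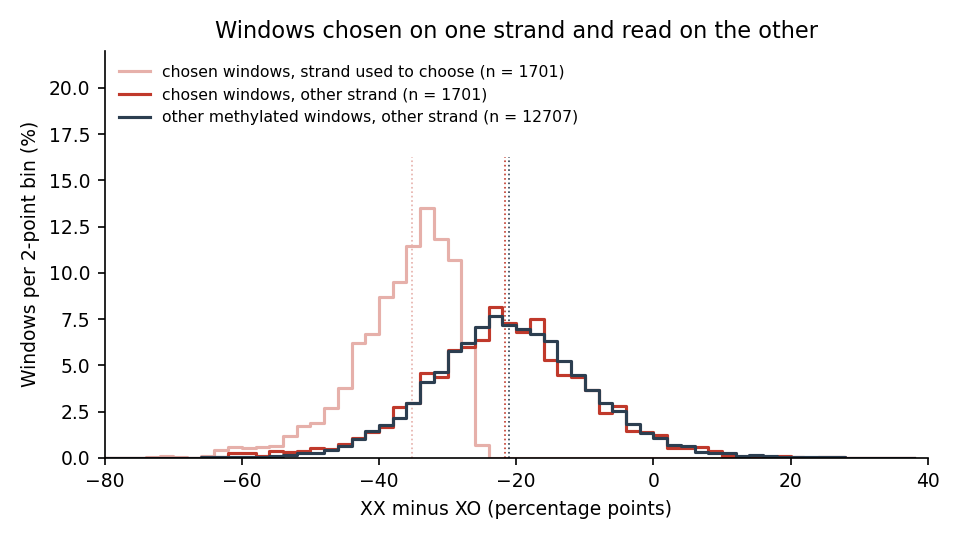
The difference in methylation, XX minus XO in percentage points, is shown on the horizontal axis for windows chosen on 1 strand, both directions pooled, and the vertical axis gives the percent of windows per bin of 2 points. The strand used to choose (pale red) lies far to the left, whereas the other strand of the same windows (red, dotted median -21.6) overlies the other methylated windows (dark, dotted median -21.1).

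Other ways to split the cytosines of a window gave larger differences. When every other cytosine was used to choose, the fall on the cytosines in between was -28.0 points for chosen and -21.4 for other windows, and 27.7% against 3.31% met both limits. Cytosines in between can lie on the same short fragments as those used, or on the other strand of the same CpG. The windows described above held 2195 CpGs read on both strands. The cytosines in between are thus not independent of the choice, and this larger difference cannot be read as an independent check. A strand not used to choose can likewise hold the other strand of the same CpGs, so that reading is not independent either. When the windows were split at the middle, the fall on the unused side was -22.9 points for chosen and -19.9 for other windows, and 282 of 2169 met both limits there, against 5.26% of the others. Among windows from 50% to 60% in XO cells on the choosing side, these falls were -22.0 and -17.9 points. With alternate cytosines they were -26.6 and -19.3 points in that band.

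Within a window the cytosines lay in a few short groups, with a median of 2 groups separated by at least 300 bp, and 204 windows had a single group. In 352 windows with at least 2 groups of 3 or more cytosines, every group was lower in XX cells in 347, and every group fell by 20 points or more in 255 (72.4%). Of 6242 other methylated windows with such groups, every group was lower in 5316 and every group fell by 20 points or more in 24.8%. Each group met both limits on its own in 30 of the 352 chosen windows and in 4 of the 6242 others. These groups hold the cytosines that chose the windows.

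**Figure D3:**
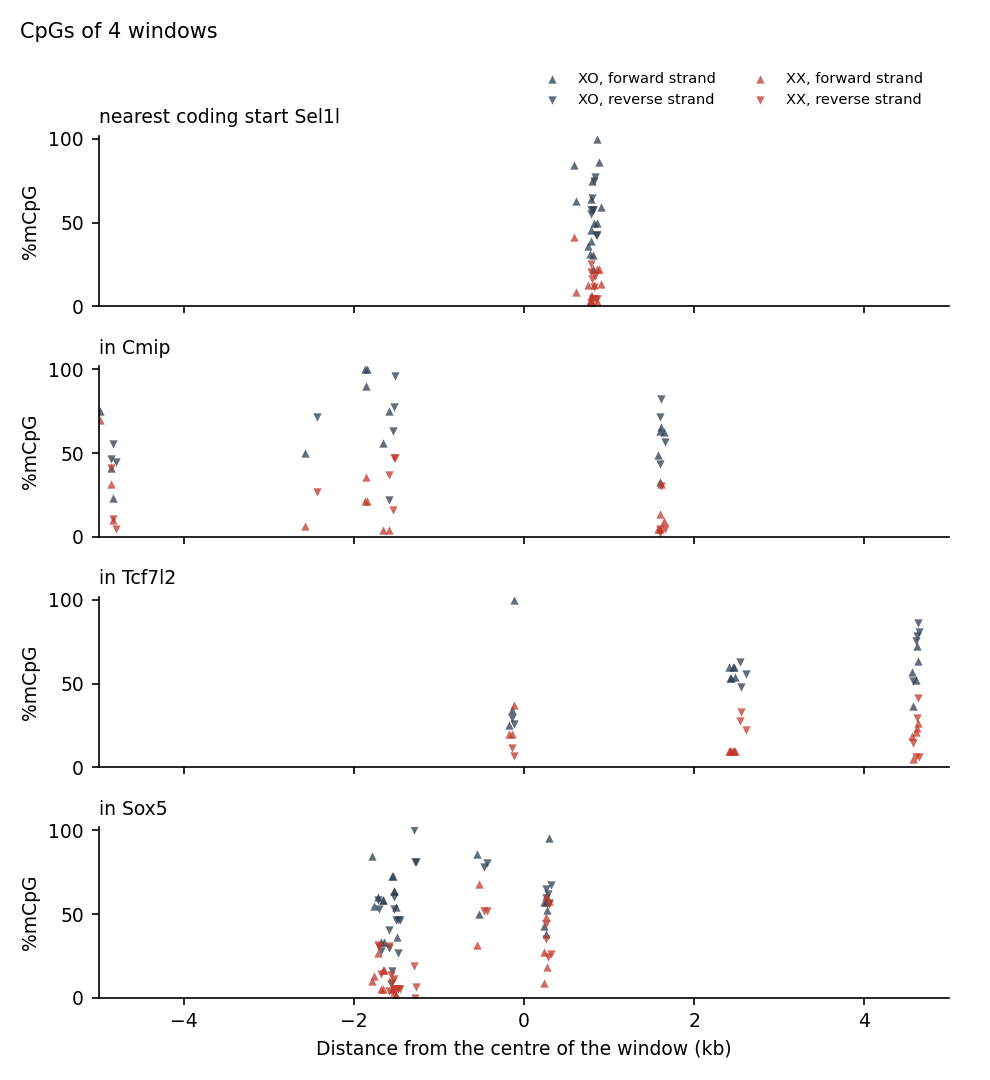
Each point is 1 CpG cytosine in 4 of the windows, with the distance from the centre of the window in kb on the horizontal axis and methylation (%mCpG) on the vertical axis, for XO (dark) and XX (red) cells on the forward (upward) and reverse (downward) strand. The cytosines of the window nearest to Sel1l lie in 1 place, whereas those in Cmip, Tcf7l2 and Sox5 lie in several groups that all fell in XX cells.

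The windows lay in DNA with somewhat fewer CpGs, and farther from gene starts, than other methylated windows. Their median density was 11.3 CpGs per kb, against 12.3 in other methylated windows and 14.3 in all windows tested. The difference of -1.0 CpGs per kb shrank to -0.1 with medians over cytosines and to -0.6 with a limit of 30% in XX cells. Their median GC content was 44.6% against 45.9% in other methylated windows. The median distance to the nearest start of a protein-coding gene was 44.7 kb against 31.8 kb. A cytosine within 1 kb of such a start was held by 32 windows (4.83%), against 7.22% of other methylated windows and 39.6% of all windows tested. More than 100 kb from a start lay 199 windows (30.02%) against 23.0%. Most cytosines lay in a protein-coding gene in 328 windows (49.5%) against 54.4%, an order that turned when medians over cytosines, or a limit of 30% in XX cells, were used to choose, and 326 windows (49.2%) held no cytosine in such a gene.

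Introns held 34.7% of the cytosines, coding exons 14.3%, untranslated exons 1.40% and sequence outside protein-coding genes 49.6%. The limits that chose the windows largely set the levels in each place, which are given as a description. Coding exons had 20.6% in XX and 53.6% in XO cells, introns 22.3% and 55.5%, sequence outside coding genes 21.2% and 55.9%, and the 271 cytosines within 1 kb of a start 21.7% and 53.0%.

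Repeats, taken as the soft-masked bases of the reference, made up a median of 24.9% of these windows and 24.5% of the other methylated windows, and the sign of this small difference turned with medians, with a limit of 30% in XX cells and with a minimum of 20 cytosines. Cytosines in repeats were 19.98% of those in chosen windows, with 21.2% methylation in XX and 56.7% in XO cells, beside 21.6% and 55.1% outside repeats. Most cytosines lay in repeats in 121 windows (18.3%), a share like the 18.5% of other methylated windows. Windows that kept at least 50% in XX cells had more repeats, with a median of 37.8% of bases and most cytosines in repeats in 38.1%. These kept windows also had a higher median in XO cells, 74.9% against 53.9% in chosen windows, so the 2 groups differ in XO level too.

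Since the limits favour windows with low methylation in XO cells, the comparison was repeated among windows from 50% to 60% in XO cells, where 11.8% were chosen. The differences were then larger, with 11.5 against 12.9 CpGs per kb, 24.0% against 21.7% soft-masked bases, 51.6% against 63.8% of windows in protein-coding genes and 40.5 kb against 23.4 kb to the nearest start. From the lowest to the highest of 5 equal groups by CpG density, the share chosen went from 20.1% to 7.24%, and by GC content from 22.5% to 6.27%. By distance to a start it went from 8.32% to 17.95%, and by soft-masked share from 8.0% to 16.8%. The share also moved with the number of cytosines listed, from 15.03% in windows with fewest to 7.03% in those with most, and the part of this number in the other relations was not tested.

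These gradients were small in terms of the level kept. The median ratio of XX to XO methylation over all windows in these groups, chosen or not, was 0.573 at the lowest and 0.635 at the highest CpG density. It was 0.627 at the lowest and 0.614 at the highest soft-masked share.

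**Figure D4:**
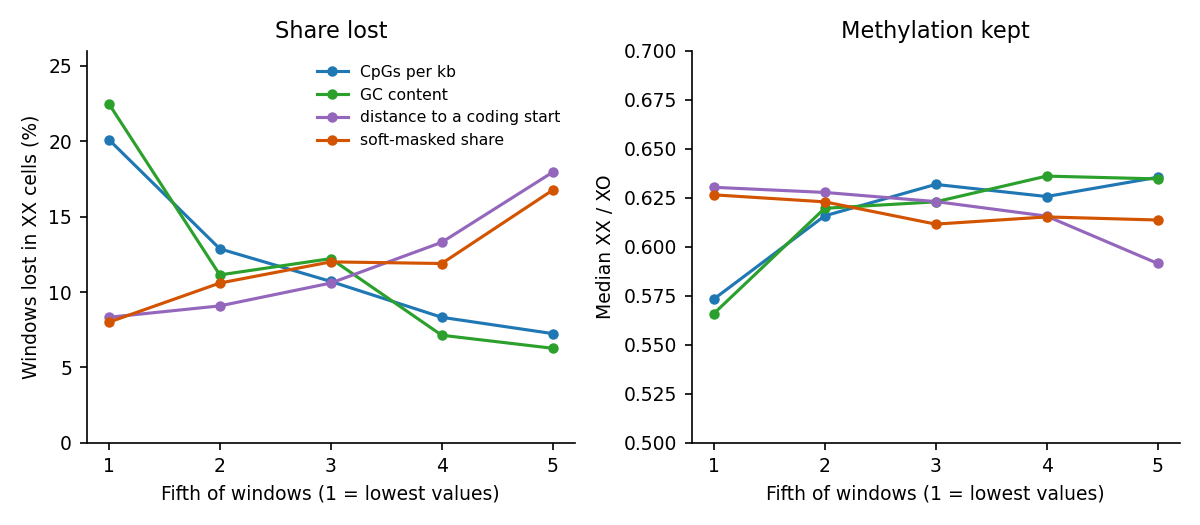
Windows with a mean of 50 to 60 %mCpG in XO cells were divided into 5 equal groups of 925 by each of 4 properties, from lowest (1) to highest (5) on the horizontal axis. On the left the vertical axis gives the percent of windows chosen as lost, which fell with CpG density and GC content and rose with distance to a coding start and soft-masked share, and on the right it gives the median ratio of XX to XO methylation, on an axis that starts at 0.5, which moved between 0.566 and 0.636.

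The chosen windows were scattered. The 663 windows formed 657 single windows and 3 pairs, no run of 3 occurred, and the median distance to the next chosen window was 1080 kb. They lay in 545 of the 2100 stretches of 1 Mb with a methylated window, with at most 4 in 1 stretch. Every autosome held some, from 24 of 607 methylated windows on chromosome 7 (3.95%) to 25 of 289 on chromosome 16 (8.65%), beside 6.86% over all autosomes.

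Windows next to a chosen window were close in median level to those next to any other methylated window. The 322 tested windows next to a chosen window had medians of 24.2% (XX) and 40.5% (XO), and the 5602 next to another methylated window had 24.7% and 40.8%. Of 110 methylated windows next to a chosen one, 6 (5.45%) were chosen too, beside 5.42% of those next to another methylated window. Farther out the share varied, with 12 of 80 at 100 kb beside 5.21%, and 4 of 93 at 50 kb beside 6.76%. Summed over 10 to 100 kb, 68 of 873 methylated neighbours of chosen windows (7.79%) were chosen, beside 5.51% of those of other methylated windows, with a window counted once for each window it neighbours. These neighbours took no part in the choice, although they were read in the same libraries.

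**Figure D5:**
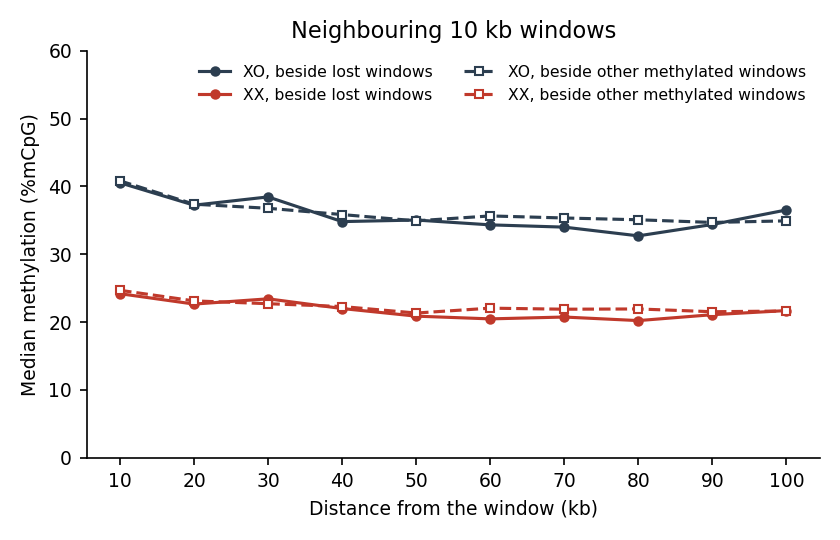
The vertical axis gives the median methylation (%mCpG) of windows with at least 10 listed cytosines at 10 to 100 kb (horizontal axis) from chosen windows (filled points, solid lines) and from other methylated windows (open points, dashed lines), in XO (dark) and XX (red) cells. The lines of the same karyotype lie close together at each distance, starting at 40.5 and 40.8% in XO and at 24.2 and 24.7% in XX cells.

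By the rule for naming windows, the largest falls were taken among the 16 windows with at least 20 cytosines, at least 5 on each strand and both limits met on each strand. The largest lay on chromosome 12 at 92880000 to 92889999, 1040 kb from the nearest coding start, that of Sel1l, an adaptor of protein degradation at the endoplasmic reticulum. Its 24 cytosines had a mean of 11.2% in XX and 56.9% in XO cells and were lower in XX cells at all 24, with differences of -45.1 points on the forward and -46.7 on the reverse strand. An intronic window of Cmip on chromosome 8 at 117390000 to 117399999 had 20.8% in XX and 62.1% in XO cells, and was lower at 25 of 26 cytosines.

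The window in Tcf7l2, a transcription factor of the Wnt pathway, on chromosome 19 at 55910000 to 55919999, had 17.96% in XX and 57.4% in XO cells, with 11 of its 24 cytosines in coding exons. The window in Sox5, an HMG-box transcription factor, on chromosome 6 at 143830000 to 143839999, had 20.9% and 56.2%, with 35 of 44 cytosines in coding sequence. A window 47.7 kb from the start of Ctnnb1, which encodes beta-catenin, had 20.6% and 55.2%. A window in an intron of Cd83, a surface marker of mature dendritic cells, had 17.5% and 54.3%.

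The window in Eif4b, a translation initiation factor, lay on chromosome 15 at 102080000 to 102089999, with all its listed cytosines in coding exons, and had means of 21.8% (XX) and 62.2% (XO). It was lower in XX cells at all 24 cytosines. The remaining windows of this kind lay 24.2 kb from the start of Tril, a cofactor of Toll-like receptor signalling, with 22.5% and 61.9%, near D3Ertd751e with 23.1% and 59.99%, and in an intron of Tmtc2 with 19.04% and 53.1%.

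The windows with most cytosines were also named. In Pxdn, which encodes peroxidasin, an enzyme that crosslinks collagen of basement membranes, all 72 cytosines were coding, and the means were 24.2% in XX and 50.2% in XO cells. The strands of this window were unlike, with differences of -36.4 points on the forward and -12.8 on the reverse strand. The window nearest to Arhgef26 had 22.5% and 64.0% over 58 cytosines, with -45.9 and -38.2 points on the strands, and 79.4% of its bases were soft-masked. Windows in Zdhhc25 (40 cytosines, 24.7% and 50.8%) and Adamtsl2 (39 cytosines, 24.3% and 55.9%) had falls of like size on both strands.

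The 3 pairs of adjacent windows lay in introns of Tmtc2, in introns of Spock1, which encodes a proteoglycan, and 315 to 325 kb from the start of Runx1, a transcription factor of blood development. The Tmtc2 pair had 19.04% and 19.9% in XX and 53.1% and 65.6% in XO cells. The Spock1 pair had 12.7% and 23.0% in XX and 58.1% and 50.6% in XO cells. The pair near Runx1 had 24.9% and 22.9% in XX and 54.7% and 51.3% in XO cells.

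Gene starts were few among the chosen windows. In 21 windows at least 5 cytosines lay within 1 kb of a coding start, and over those cytosines methylation fell by 20 points or more in 19. These cytosines took part in the choice, and at Apmap, Csmd3 and Chrna4 they were all the listed cytosines of the window. The limits fix a fall of more than 20 points over each whole window, and no such count is given for other methylated windows. The 19 of 21 is thus not read as a trait of gene starts. In other methylated windows, the 5358 cytosines within 1 kb of a start had means of 38.7% in XX and 57.9% in XO cells. Among the 21 windows, the largest falls over cytosines near the start were at Apmap, with 14.7% and 58.7%, and Acp4, an acid phosphatase gene, with 12.6% and 55.6%. Zfp61, a zinc finger gene, stood at 24.6% in XX against 67.4% in XO cells over 19 cytosines, and Csmd3, a large transmembrane protein gene, had 13.4% and 54.2% over 13. Anxa5, which encodes an annexin that binds phosphatidylserine, had 15.1% and 51.3% over 10, and Nfatc3, a transcription factor activated by calcineurin, had 24.8% and 58.7% over 19. At the start of Apmap all but 2 of 16 cytosines were on the forward strand, and both reverse cytosines were listed at 0% in each karyotype. Sned1, Car12, Chrna4 and Pla2g5 stood at 21.7% to 34.9% in XX against 54.5% to 68.2% in XO cells over 7 to 12 cytosines.

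The 337 windows with a cytosine in a protein-coding gene were assigned, by most of those cytosines, to 320 different genes. Ulk4, a kinase-related gene, held 3 chosen windows of 6 methylated windows and Sdk1, an adhesion molecule of synapses, held 3 of 7. Both methylated windows of Cdh22, a cadherin, were chosen, with 23.8% and 24.4% in XX and 53.7% and 58.9% in XO cells. Gm20388, a very long gene model on chromosome 8, held 5 of 89.

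Among 24 gene lists, the share of methylated windows that were chosen was read beside the 6.86% over all autosomes. Cadherin genes had 6 of 38 (15.8%), in Cdh18, Cdh4, Cdh22, Cdh23 and Cdh13, and calcium channel genes had 5 of 36 (13.9%), in Cacna2d2, Cacna1g, Cacna1c and Cacng4. Cdh18 had the largest of these falls, from 54.3% in XO to 15.9% in XX cells. Solute carrier genes had 9 of 126, zinc finger genes 3 of 61, potassium channel genes 2 of 43 and collagen genes 2 of 69. From 50% to 60% in XO cells, 6 of 25 cadherin and 5 of 21 calcium channel windows were chosen, beside 11.8% over all autosomes. In that band solute carrier genes had 9 of 66, zinc finger genes 2 of 25, potassium channel genes 1 of 20 and collagen genes 2 of 37. These shares are a description, with no test.

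Imprinted genes had 0 of 21 methylated windows chosen, in 11 genes. With 3 divided by the number of windows as a rough upper limit, the share could be up to 14.3%. That limit treats windows as independent and lies above the 6.86% over all autosomes, so this count is not read as sparing. Windows below 50% in XO cells could not enter, so imprinted sequence at such levels was not counted. The paper reports lower methylation at imprinting control regions in XX cells, which these counts do not address. The lists of DNA methylation enzymes, naive and primed pluripotency genes, trophoblast genes and MAP kinase feedback genes had 0 of 6, 4, 4, 4 and 4. Wnt and Frizzled genes had 0 of 7 and protocadherins 0 of 2, with upper limits of 42.9% and 100%. The only germline gene chosen, of 8 methylated windows, was Piwil4, which directs methylation of transposons by piRNAs in the male germ line, with 24.9% in XX and 52.5% in XO cells. Of receptor and regulator families, glutamate and GABA receptor genes had 2 of 34, Adamts genes 2 of 23 (Adamts17 and the related Adamtsl2), semaphorin and plexin genes 2 of 21, forkhead genes 1 of 17, olfactory receptor genes 1 of 10, vomeronasal receptor genes 1 of 9 and histone deacetylase and demethylase genes 1 of 8. Genes of the Hox and 2-cell stage lists held 0 methylated windows.

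On chromosome X, the same limits chose 13 of 134 methylated X-linked windows (9.7%), and 4 of 35 (11.4%) from 50% to 60% in XO cells. These 13 windows had medians of 20.8% in XX and 61.8% in XO cells and 53.8% soft-masked bases. All 134 methylated X-linked windows had a median of 61.99% soft-masked bases, so the chosen ones were not richer in repeats than their X-linked background. XO cells carry a single X chromosome, so the X-linked values compare different numbers of copies.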

How the data were processed

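RRBS libraries were prepared with the NuGEN Ovation Methylseq kit from each sorted karyotype, 1 library for XX and 1 for XO cells. The labels give 7 passages of culture and the study's methods a larger number. The authors deposited the percent of reads methylated at each CpG cytosine in each library, and the submitters' processing notes name bcl2fastq, Bismark and build mm10. The coverage minimum is not given in the sources used here. No read counts or coverage stood beside the percents, so the depth is unknown and no interval that needs it was computed.

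All 1782730 rows were placed on GRCm38 (RefSeq) and 51 lay on no CpG. Genes and starts were from GENCODE M21, and repeats were soft-masked bases, with no repeat classes. Means over rows were taken in 10 kb windows (numbered by start divided by the window size) with Python 3.11.15, numpy 2.4.6 and pandas 2.3.3, with no test, as 1 library per karyotype allows none. Scripts were checked on simulated tables.

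The windows and gene lists were chosen with earlier results of these data known. The text names windows with the largest fall (at least 20 rows, 5 per strand, limits met on each strand), with most rows, in the longest runs, with the largest fall near a start, in listed genes and next to the limits. A window is named by the coding gene that holds most of its rows, else by the nearest coding start. For windows read on a strand not used to choose, the same limits were applied with at least 5 rows per strand. The alternatives changed the window, row minimum, summary, limits, strands and annotation. The comparison of the extra fall and the windows met on each strand were added after seeing the data.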

Additional observations from a re-analysis of the deposited data

How the results depend on the processing

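Of 94 comparisons with an alternative, 56 stayed within 1.5 times the value reported, 32 moved further and 6 changed sign. The fall on the strand not used to choose moved between -24.45 and -20.7 points, and was -22.9 and -28.0 on cytosines not used when windows were split at the middle or by alternate cytosines. The number of windows depended on the limits, at 2259 with a minimum of 5 cytosines, 89 with 20, 1478 with medians in place of means, 1923 with both strands of a CpG counted once, 115 with an XO limit of 60%, 176 with an XX limit of 20% and 1753 with 30%. The share of methylated windows was then 14.9% with medians, 2.28% with the XO limit of 60%, and 1.82% and 18.1% with the XX limits of 20% and 30%. The difference in CpG density (-1.0 per kb as reported) was -0.1 with medians and -0.6 with the XX limit of 30%.

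The difference in soft-masked share (0.4 points as reported) changed sign with a minimum of 20 cytosines (-0.1), with medians (-0.86) and with the XX limit of 30% (-1.15). It was 2.31 for windows of 50% to 60% in XO cells, 1.04 with the limits met on each strand, 0 with 5 kb windows, 0.21 with a minimum of 5, 1.11 outside soft-masked sequence, 0.04 with the XO limit of 60% and 3.32 with the XX limit of 20%. The difference in the share in protein-coding genes (-4.97 points) changed sign with medians (0.26) and the XX limit of 30% (1.23). It was -12.2 from 50% to 60% in XO cells, -10.7 with the limits met on each strand, -7.48 with 20 kb windows, -8.15 with a minimum of 20, -7.55 with the XO limit of 60% and -9.38 with the XX limit of 20%.

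The extra fall of chosen over other methylated windows on the unused strand (-0.47 points) changed sign with medians (0.66). It was -0.25 without cytosines at exactly 0% or 100% in both libraries, -2.21 with the XO limit of 60%, -1.76 and -0.70 with the XX limits of 20% and 30%, -3.06 with windows split at the middle and -6.59 with alternate cytosines. The cause was not tested, and neither alternate cytosines nor those on the other strand are independent of those used to choose. No paired analysis was possible because each karyotype had 1 library. Depth is unknown, so single cytosines at 0% or 100% cannot be weighed, and the windows near a limit change with each choice above.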

Other observations

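By the base before and the base after the CpG, in the chosen windows the ratio of mean XX to mean XO methylation ran from 0.330 at ACGT to 0.412 at CCGG, which was the most frequent with 3688 of 9670 cytosines. In other methylated windows the order differed, from 0.625 at ACGA to 0.691 at GCGC, with ACGT at 0.651 and CCGG at 0.636. Windows that met both limits on each strand alone, 97 of 5163 methylated on each strand (1.88%), lay 62.1 kb from the nearest coding start at the median, against 33.0 kb for the others, with 43.3% against 53.9% in protein-coding genes. The densest 1 Mb stretch of chosen windows by share, with at least 3, was chromosome 1 at 142000000 to 142999999, where all 3 methylated windows were chosen.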
